A study of Mus musculus with 165 samples.

Results

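The endoplasmic reticulum (ER) chaperone genes described here are *Hspa5*, *Hsp90b1*, *Calr*, *Canx*, *Pdia3*, *Pdia4*, *Pdia6*, *Dnajb9*, *Sdf2l1* and *Xbp1*. They were chosen by gene symbol and make up 10 of the 36255 genes in the deposited table. All 10 passed the filter on low values and were among the 17414 genes tested.

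Gene expression was profiled by RNA-Seq of polyadenylated RNA in PUER cells, a bone-marrow-derived mouse myeloid progenitor line of the genotype Spi1-/-. Every group therefore lacks endogenous PU.1 and carries the PU.1 estrogen receptor fusion that 4-hydroxy-tamoxifen (OHT) activates. Undifferentiated cells in IL3 (3 libraries) began both time courses. For macrophage differentiation, 200 nM OHT was added in 5 ng/ml IL3 (IL3-OHT). For neutrophil differentiation, cells spent 48 h in 10 ng/ml GCSF without OHT (GCSF 0h, 3 libraries) and then received 100 nM OHT (GCSF-OHT). Both treatments were sampled at 27 time points from 1h to 168h, for 56 groups in all. Of these, 53 hold 3 libraries and 3 hold 2, namely GCSF-OHT 96h, 112h and 152h. Part of the medium was renewed, with fresh OHT, at 40h, 88h and 136h. The study left out IL3-OHT 96h and 144h, and they enter here only where they are named. Cytokine, pre-treatment and OHT dose differ together between the conditions and cannot be told apart. Each time point came from a culture plate of its own, so that time and plate cannot be told apart either. Trypsin was used to detach the cells harvested later than 24h, so those time points also differ from the start in handling. The libraries of a group are wells of 1 cell line, and p-values measure the spread between wells.

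The targeted gene was checked first. *Spi1*, which encodes PU.1, had between 2754 and 17016 reads in every library of this Spi1-/- line, and gene-level counts do not separate the fusion from the endogenous gene. Libraries held 14600246 to 33147945 reads. The myeloid genes *Kit*, *Itgam*, *Lyz2* and *Csf3r* were detected in every library, whereas *Cd34* had at most 6 reads and *Ptprc* had a mean normalized count of 3.23 in undifferentiated cells. *Cd3e* and *Pax5* of lymphoid cells had at most 3 reads and *Hbb-bt* and *Hba-a1* of erythroid cells at most 4 reads in any library, while *Cd79a* reached 21 and *Klf1* 60 reads. *Cd79a* was lower than in undifferentiated cells at GCSF 0h, at both endpoints and in the windows of IL3-OHT from 32h on. Its mean log2 change from the start was higher in GCSF-OHT than in IL3-OHT by 1.67. *Klf1* was not called at GCSF 0h or at the endpoints, but was higher at 80-128h of IL3-OHT (0.65), where *Dnajb9* and *Hspa5* were lower, and in the IL3-OHT steps 8-12h (0.78) and 136-144h (0.65). It was lower in the step from 88h to 96h of GCSF-OHT (-1.01), where *Dnajb9* was higher, and in the GCSF-OHT renewal steps against the other steps (-0.66). The part of these markers in the results below was not tested.

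ER chaperones fold and retain the proteins that a cell secretes or places on its surface. *Hspa5* encodes BiP, the Hsp70 of the ER, which also holds the sensors of the unfolded protein response (UPR) inactive, and *Dnajb9* encodes a J-domain co-chaperone of BiP. When unfolded protein accumulates, cleaved ATF6 and spliced XBP1 are known to bind ER stress response elements (ERSEs) in the promoters of many chaperone genes. Myeloid progenitors load granules with proteins that are folded in this compartment.

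The promoters are shown first. The members were chosen by symbol and not by sequence. The ERSE is known from promoters of chaperone genes, however, so matches among the members are a description and no independent result. The stretches run over the 250 bases before the RefSeq start on GRCm38.p6, 5′ to 3′ on the strand of the gene, and capitals mark exact matches to the ERSE, CCAAT and CCACG with 9 bases of any kind between them, on either strand. The 5 members with an exact match are given first, and *Pdia4* and *Dnajb9*, which have none, follow because several of the results turn on them.
Hspa5, chr2:34771840-34772089, plus strand: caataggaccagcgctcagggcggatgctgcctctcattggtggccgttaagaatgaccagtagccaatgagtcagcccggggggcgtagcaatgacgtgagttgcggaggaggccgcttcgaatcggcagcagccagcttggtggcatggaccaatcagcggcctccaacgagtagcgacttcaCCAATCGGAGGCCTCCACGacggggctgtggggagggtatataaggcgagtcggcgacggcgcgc
Hsp90b1, chr10:86705445-86705694, minus strand: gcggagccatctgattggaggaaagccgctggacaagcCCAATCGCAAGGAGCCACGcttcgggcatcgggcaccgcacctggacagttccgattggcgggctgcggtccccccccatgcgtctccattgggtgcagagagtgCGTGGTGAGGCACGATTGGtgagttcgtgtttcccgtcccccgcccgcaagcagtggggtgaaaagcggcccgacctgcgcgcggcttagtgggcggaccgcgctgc
Calr, chr8:84846932-84847181, minus strand: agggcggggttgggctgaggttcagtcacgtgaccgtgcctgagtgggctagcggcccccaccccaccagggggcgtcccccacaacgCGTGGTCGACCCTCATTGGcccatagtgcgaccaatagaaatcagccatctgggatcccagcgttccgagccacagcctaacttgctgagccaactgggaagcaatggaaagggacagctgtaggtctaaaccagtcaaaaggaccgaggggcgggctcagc
Canx, chr11:50325674-50325923, minus strand: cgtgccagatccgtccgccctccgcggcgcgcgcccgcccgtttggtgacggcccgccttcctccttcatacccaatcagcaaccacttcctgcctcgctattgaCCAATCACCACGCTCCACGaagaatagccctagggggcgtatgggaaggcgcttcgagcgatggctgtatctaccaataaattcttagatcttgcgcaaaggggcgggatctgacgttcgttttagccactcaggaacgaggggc
Pdia6, chr12:17266339-17266588, plus strand: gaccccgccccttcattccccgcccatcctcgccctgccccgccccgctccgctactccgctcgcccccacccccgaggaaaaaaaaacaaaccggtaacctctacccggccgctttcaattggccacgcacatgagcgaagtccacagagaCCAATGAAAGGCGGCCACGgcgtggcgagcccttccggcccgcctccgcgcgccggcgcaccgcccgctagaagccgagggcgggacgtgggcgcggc
Pdia4, chr6:47813513-47813762, minus strand: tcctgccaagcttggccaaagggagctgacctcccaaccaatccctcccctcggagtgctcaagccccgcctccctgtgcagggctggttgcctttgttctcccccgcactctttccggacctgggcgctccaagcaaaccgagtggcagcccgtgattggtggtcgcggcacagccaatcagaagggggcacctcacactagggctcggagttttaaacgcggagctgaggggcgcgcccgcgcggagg
Dnajb9, chr12:44210069-44210318, minus strand: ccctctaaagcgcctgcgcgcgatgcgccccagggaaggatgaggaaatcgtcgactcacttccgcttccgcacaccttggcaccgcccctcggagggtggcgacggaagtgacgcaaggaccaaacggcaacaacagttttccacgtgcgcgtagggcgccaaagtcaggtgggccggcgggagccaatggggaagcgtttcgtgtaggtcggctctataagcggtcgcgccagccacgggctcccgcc

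An exact ERSE stood in the windows of 5 of the 10 members, and *Hsp90b1* held 2. The windows searched run from 250 bases before to 50 bases after each RefSeq start, and 37 of the 27025 genes with such a window, or 0.137%, held the motif. Allowing 1 of the 10 fixed letters to differ added *Pdia3* and *Pdia4*, for 7 members, against 1.72% of genes. The related elements ERSE-II, ATTGG and CCACG with 1 base between them, found in 0.0444% of genes, and UPRE, TGACGTGG, found in 0.714% of genes, matched none of the 10 windows, so that *Dnajb9*, *Sdf2l1* and *Xbp1* held none of the letters searched. These are matches of letters in a short window and not observed binding sites.

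All of the members were expressed well above the counting floor, the lowest count of any of them in any library being 528 reads, for *Dnajb9*. Per kilobase of the longest coding transcript, undifferentiated cells had the highest mean level of *Calr*, the Ca2+-binding lectin chaperone of the ER lumen, at 17133 normalized counts per kb, followed by *Hspa5* at 13271 and *Hsp90b1*, the Hsp90 of the ER, at 10109. The UPR transcription factor *Xbp1* followed at 5953 and *Pdia3*, the disulfide isomerase that works with the lectin chaperones, at 5416. The membrane-bound lectin chaperone *Canx* stood at 3932 and *Sdf2l1*, which acts with ER J-domain proteins, at 3433. The disulfide isomerases *Pdia6* at 3184 and *Pdia4* at 3092 were the sole neighbours in this order whose libraries overlapped, and *Dnajb9* was lowest at 1593. The median coefficient of variation between replicates ran from 2.23% for *Xbp1* to 5.82% for *Dnajb9*. The widest spread was at GCSF-OHT 104h, where replicate 3 of *Pdia3* stood at 16456 normalized counts and the other libraries at 12229 and 11379. *Pdia3* and *Pdia6* overlap the opposite-strand genes *Catsper2* and *Atp6v1c2*, whose highest values came to 1.62% and 0.364% of the member's lowest, *Hsp90b1* overlaps *Gm15344* on its own strand, and their reads cannot be told apart in a library not stated to keep strand. Counts per gene also do not separate spliced from unspliced *Xbp1*.

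**Figure D1:**
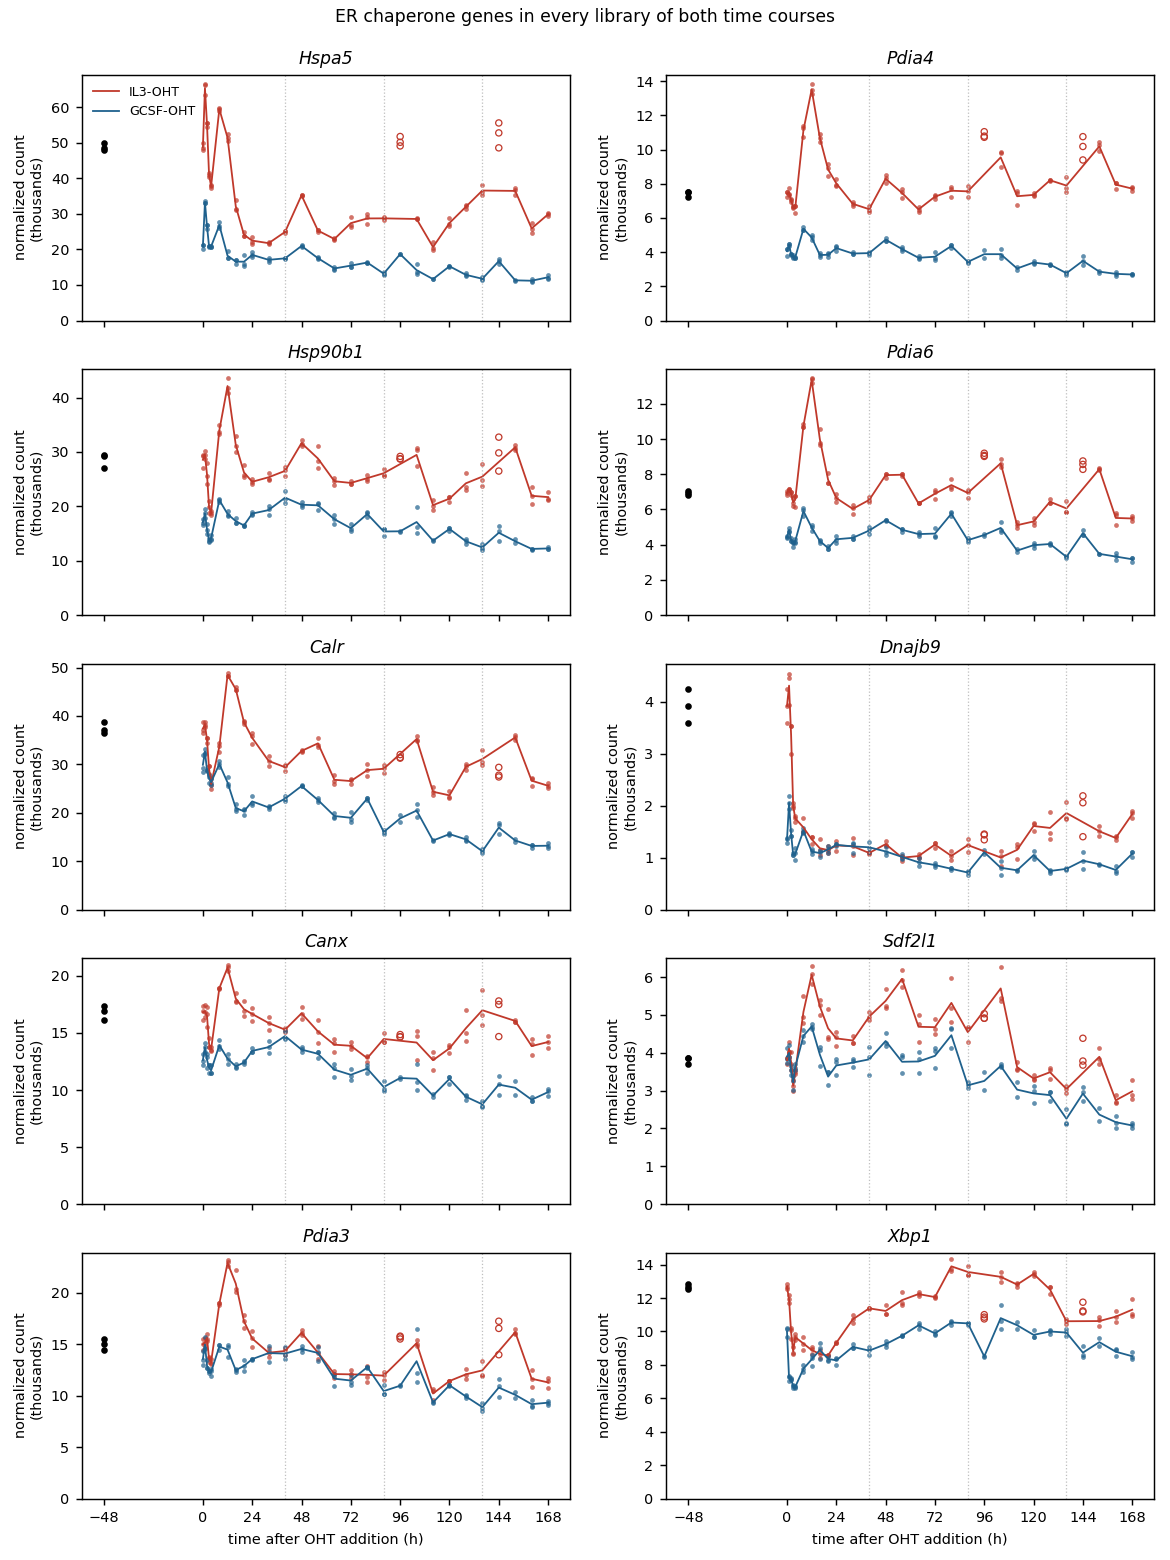
Normalized count of each ER chaperone gene in every library against time after OHT addition, for IL3-OHT (red) and GCSF-OHT (blue), with lines through the means. Black points 48 h before OHT are the undifferentiated libraries, which are repeated in red at 0h as the start of IL3-OHT, the blue points at 0h are GCSF 0h, open circles are the IL3-OHT time points the study left out, and dotted lines mark medium renewals. *Pdia4* is lower in GCSF-OHT than in IL3-OHT throughout, and 7 members are highest at 12h of IL3-OHT.

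The GCSF pre-treatment sets cells after 48 h in GCSF beside undifferentiated cells, before PU.1 was activated. The change of cytokine, the washing that came with it and time in culture cannot be told apart in this comparison. After 48 h in GCSF, 5 of the 10 members had fallen and none had risen. Among the members *Dnajb9* and *Hspa5* fell most, to 0.343-fold and 0.428-fold of the undifferentiated level, with *Pdia4*, *Hsp90b1* and *Pdia6* also lower. The lectin chaperones, their partner *Pdia3*, *Sdf2l1* and *Xbp1* did not pass the test. DEGs were taken from limma where the adjusted p was below 0.05 and the log2 fold change exceeded 0.58 in size, and 20.7% of all genes were lower and 33.7% differed in either direction by this rule.

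*Dnajb9* was at 3589, 3927 and 4242 normalized counts in undifferentiated cells and at 1383, 1280 and 1363 at GCSF 0h (log2 fold change -1.54 ± 0.09, SE, adjusted p = 7.09e-31). *Hspa5* was at 47878, 49849 and 48471 and then at 21348, 20084 and 21212 (-1.22 ± 0.04, adjusted p = 1.86e-49). Neither gene had a library of one group within the range of the other. Of all genes 34.6% had every GCSF 0h library below all undifferentiated libraries, and 27.5% had every one above. *Pdia4* went from 7237, 7493 and 7526 to 4171, 3792 and 4201 (-0.87 ± 0.04), *Hsp90b1* changed by -0.74 ± 0.06 and *Pdia6* by -0.65 ± 0.04 on the log2 scale. *Canx* at -0.41, *Xbp1* at -0.34, *Calr* at -0.32 and *Pdia3* at -0.15 had adjusted p-values under 0.05 but stayed within the fold threshold. *Sdf2l1* was at 3861, 3694 and 3857 before and 3729, 3839 and 4129 after, and was the sole member whose groups overlapped (0.03 ± 0.07, adjusted p = 0.701).

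Among other genes of the ER, lists of which were drawn up by function, the decrease was found in 5 of 17 oxidoreductases and related folding factors, with none higher. The 2 with the most negative log2 fold changes were *Ero1l*, the oxidase that recharges disulfide isomerases, at -2.73 and the isomerase *Txndc5* at -1.85. Of the 8 other co-chaperones of BiP only *Sil1*, its nucleotide exchange factor, fell (-1.18). The oligosaccharyltransferase with 9 genes tested, the translocon and signal peptidase with 13 and ER-associated degradation with 14 each had 1 gene lower and none higher. Of 5 glycan-trimming genes none fell and *Mogs* rose (0.66), with a median over the list of 0.47. Of 11 sensors and regulators of the UPR 4 fell, led by *Ppp1r15a* (-1.74) and *Ddit3* (-1.68). In contrast, 3 of 6 genes of granule proteins rose, among them *Mpo* (1.23) and *Prtn3* (1.08), while 13% of all genes were higher. The median log2 fold change was -0.53 over the members and -0.09 over all genes tested. In bulk libraries fewer cells that express a gene and less RNA per cell cannot be told apart.

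In IL3-OHT 4 members rose from 4h to 8h, and 7 were at their highest at 12h. *Dnajb9* was called lower from 3h at every later time point, and *Hspa5* was called lower at most time points from 16h onward. The disulfide isomerases *Pdia3*, *Pdia4* and *Pdia6* and *Sdf2l1* were above the start at 12h. These comparisons of single time points with the start were chosen after the values had been seen.

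At 1h *Hspa5* stood at 66100, 63500 and 66375, above all undifferentiated libraries, as did 19.2% of all genes. Its log2 fold change of 0.42 ± 0.04 did not reach the fold threshold. By 4h *Hsp90b1* had dropped to 18460, 18707 and 19220 from 26957, 29269 and 29449 (-0.60 ± 0.06, adjusted p = 3.33e-18), and *Dnajb9* to 1690, 1809 and 1764 (-1.16 ± 0.09). *Dnajb9* fell in a single step from 2h to 3h (-0.74 ± 0.09, adjusted p = 2.74e-11), the only member to do so among 5.33% of all genes called lower there.

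From 4h to 8h 4 members rose, against 4.86% of all genes, and none fell. *Hsp90b1* climbed to 33752, 34910 and 33286 (0.85 ± 0.06), *Pdia4* from 6674, 6314 and 6718 to 11357, 10765 and 11288 (0.76 ± 0.04), *Pdia6* by 0.71 ± 0.04 and *Hspa5* from 37720, 37365 and 38094 to 59864, 59446 and 59040 (0.66 ± 0.04). The groups of these 4 genes did not overlap, which is a description only. The share of all genes for which this held in the step was not counted. *Sdf2l1* (0.54), *Pdia3* (0.51), *Canx* (0.48) and *Calr* (0.38) moved the same way with adjusted p-values under 0.05 and within the fold threshold, whereas *Dnajb9* (-0.16, adjusted p = 0.201) and *Xbp1* (-0.06, adjusted p = 0.166) did not. The other ER genes that rose in this step were *Hyou1*, an ER relative of Hsp110, at 0.68, the folding factors *Creld2* at 1.14 and *Manf* at 0.82, and the glucosidase *Mogs* at 0.71. No gene of the oligosaccharyltransferase, translocon, degradation or UPR regulator lists was called, while 4 of 16 cytosolic chaperones rose, led by *Hspa1a* (0.89) and *Hspa8* (0.82), and *Hspb1* fell (-2.82).

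The peak came at 12h for 7 members. *Pdia6* reached 13191, 13412 and 13453 from 6922, 7040 and 6815 in undifferentiated cells (0.95 ± 0.04, adjusted p = 9.77e-43), and *Pdia4* reached 13471, 13830 and 13238 (0.86 ± 0.04). *Sdf2l1* (0.67 ± 0.07) and *Pdia3* (0.61 ± 0.06) were also called higher at 12h, when 11.2% of all genes were, and *Hsp90b1* (0.56), *Calr* (0.37) and *Canx* (0.30) stayed within the fold threshold. At that time *Dnajb9* was at 1395, 1263 and 1398, well below the start (-1.53 ± 0.09). *Hspa5*, the partner of this co-chaperone, peaked earlier, and from 12h to 16h it dropped from 50451, 52360 and 51360 to 33809, 31084 and 31413 (-0.68 ± 0.04), the sole member in a step where 0.350% of genes were lower. *Xbp1* was lowest at 20h, at 8578, 8534 and 8567 against 12518, 12682 and 12823 in undifferentiated cells (-0.57 ± 0.03), just within the fold threshold.

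**Figure D2:**
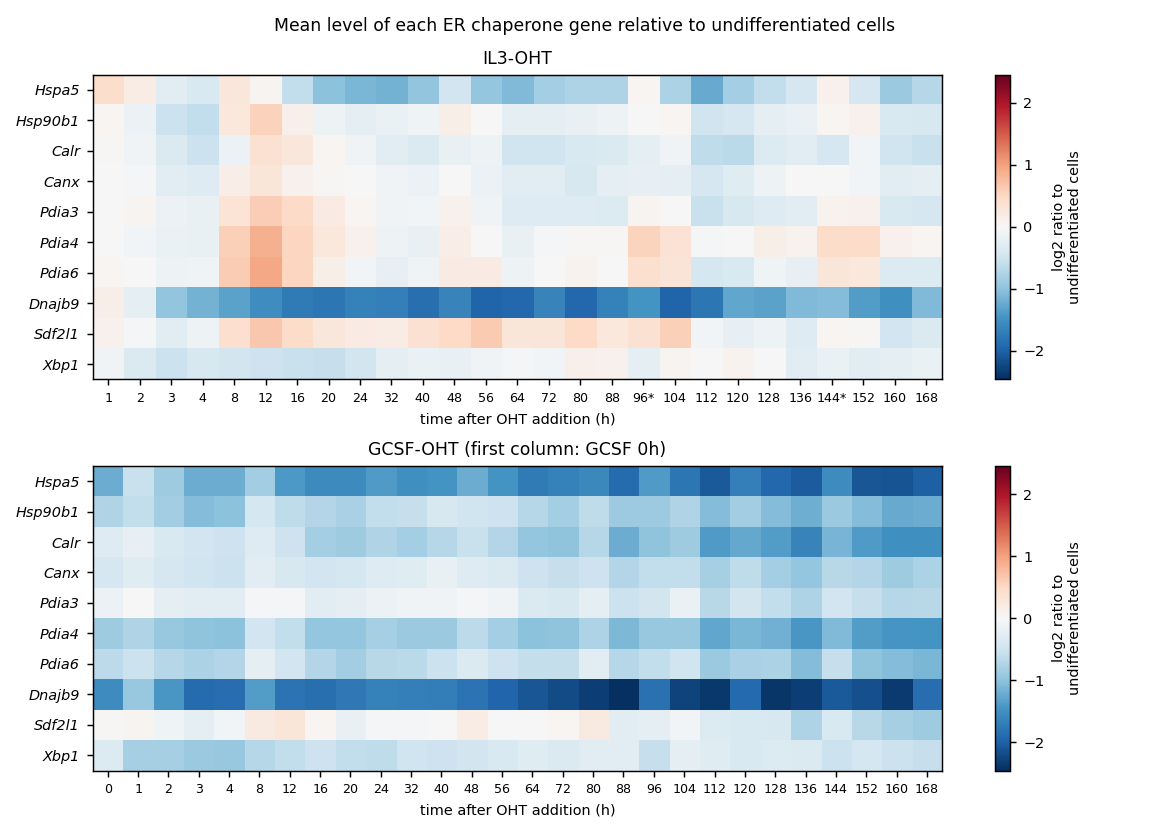
Log2 ratio of the mean level of each ER chaperone gene to undifferentiated cells, at every time point of IL3-OHT (above) and of GCSF-OHT with GCSF 0h as its first column (below), red for higher and blue for lower, with asterisks on time points the study left out. *Pdia4* and *Pdia6* are reddest at 12h of IL3-OHT, and *Dnajb9* is blue from 3h of IL3-OHT onward and throughout GCSF-OHT.

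*Dnajb9* was lower than undifferentiated cells at 23 of 25 IL3-OHT time points, down to -1.97 at 104h, and *Hspa5* at 16 of 25, down to -1.24 at 112h. *Hsp90b1* was called lower at 4h alone, *Calr* at 112h and 120h, and *Canx* and *Xbp1* at no time point. *Pdia4* was higher at 8h and 12h and lower at none, and *Sdf2l1* was higher at 12h, 56h and 104h. Tested over all time points together, with the same fold threshold at any of them, 8 of 10 members changed in IL3-OHT, where 69.7% of all genes did, and 7 of 10 in GCSF-OHT, where 47.7% did. *Canx* changed in neither, *Xbp1* not in IL3-OHT and *Hsp90b1* and *Pdia6* not in GCSF-OHT, in which the count was 4 without replicate 3. Across single time points of IL3-OHT 1.61% to 20.7% of all genes were lower and 2.81% to 13.2% higher than at the start.

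Averaged over windows, *Dnajb9* was the sole member lower at 8-24h (-1.60 ± 0.07, with 18.7% of all genes lower), and *Dnajb9* and *Hspa5* were lower at 32-72h (-1.79 and -0.91, with 17.9%), at 80-128h (-1.66 and -0.83, with 19.6%) and at 136-168h (-1.26 and -0.61, with 30.2% called in either direction). No member was called at 1-4h, when 9.43% of all genes were.

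*Pdia6* fell in 2 later steps of IL3-OHT. From 104h to 112h *Pdia6* fell from 8848, 8594 and 8417 to 5277, 4926 and 5107 (-0.76 ± 0.04) and *Sdf2l1* from 6273, 5452 and 5377 to 3577, 3537 and 3746 (-0.65 ± 0.07), while 1.32% of all genes were lower. *Pdia3* (-0.57), *Hsp90b1* (-0.54), *Calr* (-0.53) and *Hspa5* (-0.47) had log2 differences within the fold threshold. From 152h to 160h *Pdia6* fell again (-0.59 ± 0.04, with 0.999% of genes lower). No other step between consecutive time points after 16h called a member in IL3-OHT.

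At the macrophage endpoint, IL3-OHT 168h against undifferentiated cells, *Dnajb9* and *Hspa5* were lower and no member was higher, while 15.2% of all genes were lower and 25.4% differed. *Dnajb9* was at 1753, 1865 and 1890 (-1.09 ± 0.09, adjusted p = 4.09e-20) and *Hspa5* at 29439, 30311 and 29817 (-0.71 ± 0.04, adjusted p = 1.15e-28). *Calr* was at 25086, 26140 and 25497 against 37098, 38744 and 36416, a log2 fold change of -0.55 ± 0.04 that lies just within the threshold. *Pdia4*, at 7746, 7816 and 7582, differed from the start by 0.06 ± 0.04 (adjusted p = 0.265, 95% interval -0.02 to 0.14). Of the other ER genes 3 of 9 oligosaccharyltransferase subunits fell, led by *Ddost* (-0.83) and *Rpn2* (-0.70), as did *Ssr2* (-0.89) and *Sec61a1* (-0.72) of the translocon, whereas none of 8 co-chaperones or 14 degradation genes was called. Of 11 UPR regulators 2 fell, *Ern1*, the sensor that splices *Xbp1* (-0.88), and the transcription factor *Atf4* (-0.68), and *Ppp1r15a* rose (0.76).

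In GCSF-OHT few members moved during the first day, and the decline came late. *Hspa5* rose in the first hour from 21348, 20084 and 21212 to 33077, 32976 and 33698 (0.67 ± 0.04, adjusted p = 3.64e-26), and *Dnajb9* from 1383, 1280 and 1363 to 2058, 1930 and 2176 (0.61 ± 0.09), in a step where 4.01% of all genes rose. By 4h *Hspa5*, at 21050, 20636 and 20773, was back within the range of the start, and *Dnajb9*, at 1081, 946 and 1178, stood below it. *Xbp1* fell from 9666, 10125 and 10209 at the start to 6668, 6615 and 6746 at 4h (-0.58 ± 0.03, adjusted p = 9.62e-32), where it was called lower.

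From 4h to 8h *Hsp90b1* rose to 20813, 21220 and 21382 (0.58 ± 0.06), the sole member called among 3.16% of all genes, and *Pdia4* (0.54) and *Pdia6* (0.49) had log2 changes within the threshold. No rise to a 12h peak followed for *Pdia4*, which was at 4874, 4724 and 4976 at 12h. Except for *Dnajb9* from 88h to 96h (0.63 ± 0.10, with 1.15% of all genes higher), no later step between consecutive time points called a member.

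*Calr* was called most often in the later decline. It was lower than at GCSF 0h at 12 of 27 time points, *Dnajb9* at 9 and *Hspa5* at 7, all from 64h on, and *Sdf2l1* at 4, all from 136h on, while 1.89% to 14.1% of all genes were lower at single time points. In the windows no member was called before 80h. *Calr* (-0.79 ± 0.03) and *Dnajb9* (-0.68 ± 0.07) were lower at 80-128h, with 10.4% of all genes lower, and *Calr* (-1.11), *Hspa5* (-0.74), *Sdf2l1* (-0.74) and *Dnajb9* (-0.61) at 136-168h, with 14.6%.

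At 168h of GCSF-OHT against GCSF 0h, 4 members were lower and none higher, with 12.6% of all genes lower and 24.8% called. *Calr* went from 29269, 28476 and 31997 to 12812, 13053 and 13690 (-1.18 ± 0.04, adjusted p = 1.14e-51), *Sdf2l1* from 3729, 3839 and 4129 to 2079, 2020 and 2132 (-0.91 ± 0.07), and *Hspa5* to 11729, 11904 and 12855 (-0.78 ± 0.04). *Pdia4* at 2644, 2699 and 2730 passed narrowly (-0.59 ± 0.04), and was at -0.56 without replicate 1 and at -0.57 without replicate 3, within the fold threshold. *Pdia3* (-0.54), *Pdia6* (-0.48), *Hsp90b1* (-0.48), *Canx* (-0.36), *Dnajb9* (-0.32) and *Xbp1* (-0.23) had adjusted p-values under 0.05 within the fold threshold. The isomerases *Pdia5* (-1.74) and *Txndc5* (-1.38) also fell, as did 2 of 9 oligosaccharyltransferase subunits, *Ddost* (-0.996) and *Rpn2* (-0.73), while *Ero1l* rose (0.86) and none of 14 degradation genes was called.

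Against undifferentiated cells, the GCSF-OHT 168h libraries had 9 of 10 members lower, while 23.6% of all genes were lower and 39.1% were called. This comparison shares the undifferentiated libraries with the comparisons above and the 168h libraries with the one before, so that the values are given side by side. *Hspa5* was at 0.249-fold (-2.003 ± 0.04), *Dnajb9* changed by -1.86, *Calr* by -1.50, *Pdia4* by -1.46, *Hsp90b1* by -1.22, *Pdia6* by -1.13, *Sdf2l1* by -0.87, *Canx* by -0.78 and *Pdia3* by -0.69 on the log2 scale. *Xbp1*, at 8460, 8754 and 8340 against 12518, 12682 and 12823, changed by -0.57 ± 0.03 and missed the fold threshold, which it passed without replicate 2 (-0.59) and with upper-quartile scaling (-0.66). Every member's libraries lay below all undifferentiated libraries, as did those of 35.99% of all genes.

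In the other lists of the compartment, 7 of 17 oxidoreductases and folding factors, 5 of 9 oligosaccharyltransferase subunits, 3 of 13 translocon genes, 2 of 8 co-chaperones, 4 of 11 UPR regulators, 1 of 5 glycan-trimming genes and 1 of 14 degradation genes were lower in this comparison. *Txndc5* (-3.24) and *Pdia5* (-2.56) were the most negative of the oxidoreductases, and *Hyou1* fell by 1.11 on the log2 scale. *Derl2* of ER-associated degradation (0.89), the signal peptidase subunit *Sec11c* (0.69) and *Tmx3* (0.68) rose. Of 10 targets of ATF4, a transcription factor of the same stress response, 4 were lower, among them *Atf3* and *Trib3*, and 2 higher, *Ddit4* and *Chac1*. Of all genes 15.5% were higher in this comparison. Outside the ER, 8 of 16 cytosolic and 5 of 8 mitochondrial chaperones were lower, including *Hspa9* (-1.75), the mitochondrial Hsp70. The median log2 fold change was -1.17 over the members and -0.11 over all genes tested.

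**Figure D3:**
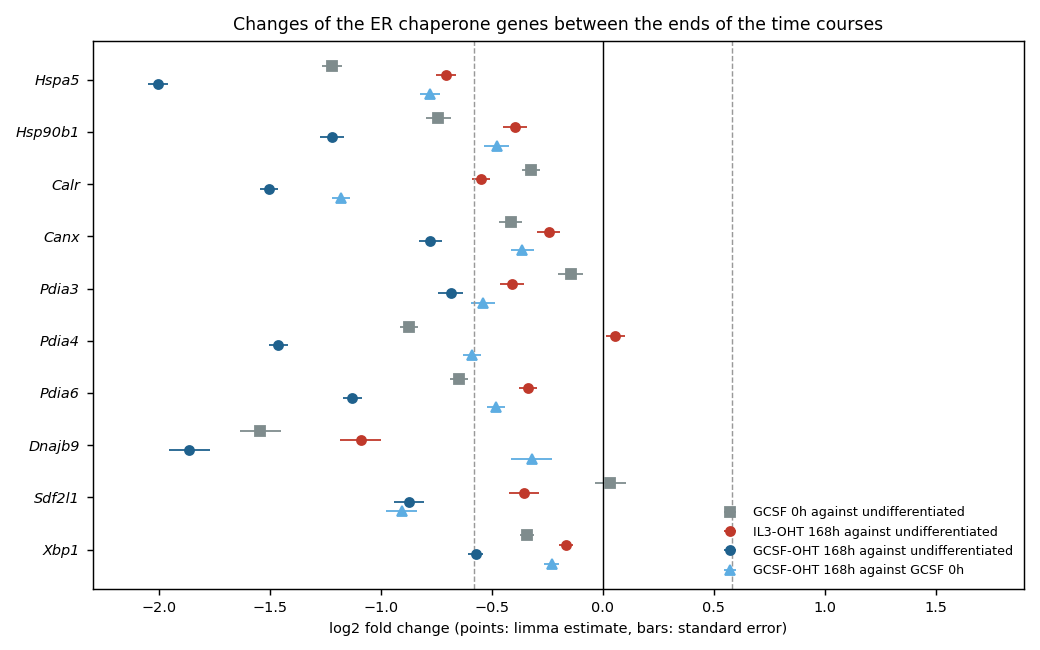
Log2 fold change of each ER chaperone gene, with its standard error, for the GCSF pre-treatment (grey squares), the IL3-OHT endpoint (red circles), the GCSF-OHT endpoint against undifferentiated cells (dark blue circles) and against GCSF 0h (light blue triangles). Dashed lines mark the fold threshold of 0.58. *Hspa5* lies at -2.003 at the GCSF-OHT endpoint and *Pdia4* at 0.06 at the IL3-OHT endpoint.

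Between the conditions, the members were lower in GCSF-OHT or did not differ by the rule used. In the mean of the 25 shared time points 5 were lower and none higher in GCSF-OHT, while 15.1% of all genes were lower and 24.5% called. The differences were -1.11 ± 0.01 for *Pdia4*, -0.95 ± 0.01 for *Hspa5*, -0.72 for *Pdia6*, -0.67 for *Hsp90b1* and -0.65 for *Calr*. *Dnajb9* (-0.50), *Canx* (-0.40), *Sdf2l1* (-0.32), *Xbp1* (-0.30) and *Pdia3* (-0.23) lay within the fold threshold. The start of the courses already differed, as the pre-treatment values show.

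At single shared time points, a comparison added after the values had been seen, *Pdia4* was lower in GCSF-OHT at 25 of 25, *Hspa5* at 20, *Pdia6* at 16, *Hsp90b1* at 15, *Calr* at 14 and *Dnajb9* at 12, and no member was higher at any. The number was 5 for *Canx*, 3 for *Pdia3* and *Sdf2l1* and 1 for *Xbp1*, while 5.89% to 19.7% of all genes were lower at single time points. The difference of *Pdia4* ran from -0.72 at 40h to -1.83 at 152h, where GCSF-OHT holds 2 libraries. At 12h, where IL3-OHT peaked, 7 members were lower in GCSF-OHT and 8.37% of all genes were, with *Hspa5* at -1.50, *Pdia4* at -1.48, *Pdia6* at -1.43 and *Hsp90b1* at -1.18. By 24h *Hspa5* had fallen in IL3-OHT to 23602, 21628 and 22160, against 19148, 17871 and 18356 in GCSF-OHT, and its difference was down to -0.28.

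The change from the start of each course was then compared between the conditions. No culture without OHT was sampled after 0h, so that OHT and time in culture cannot be told apart in this change. At 168h the change of *Calr* was more negative in GCSF by 0.63 ± 0.06 on the log2 scale (adjusted p = 7.03e-18) and that of *Pdia4* by 0.65 ± 0.06 (adjusted p = 2.92e-18), whereas that of *Dnajb9* was more negative in IL3, with a difference of 0.77 ± 0.13 (adjusted p = 2.83e-07). These 3 of 10 members passed, as did 25.7% of all genes. Over the mean of the 25 shared time points *Dnajb9* alone passed (1.04 ± 0.09, adjusted p = 3.41e-18), among 19.9% of all genes. *Dnajb9* had started from 1383, 1280 and 1363 in GCSF and from 3589, 3927 and 4242 in IL3, and both courses ended between 1017 and 1890. For *Hspa5* the difference at 168h was -0.07 ± 0.06 (adjusted p = 0.371).

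The renewals of medium and OHT fell inside the courses, and the step that follows each of them was compared in a fit of every library, those left out by the study included. The change of *Hspa5* was positive, with an adjusted p under 0.05, after each renewal in both conditions, and passed the fold threshold in IL3-OHT from 88h to 96h alone. There it went from 28152, 28912 and 29097 to 50101, 51726 and 49083 (0.81 ± 0.05, adjusted p = 1.05e-32) and was the sole member called, while 10.8% of all genes were higher. IL3-OHT 96h is one of the time points the study left out, and against the mean of 88h and 104h *Hspa5* again stood 0.81 ± 0.04 higher while *Xbp1* differed by -0.30. In the other renewal steps of IL3-OHT *Hspa5* changed by 0.50 from 40h to 48h and by 0.52 from 136h to 144h, and in GCSF-OHT by 0.26, 0.50 and 0.51 in time order.

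Over the mean of the 3 renewal steps, added after the values had been seen, *Hspa5* rose by 0.61 ± 0.03 in IL3-OHT, again alone among the members and with 8.45% of all genes higher, and changed by 0.42 ± 0.03 in GCSF-OHT, where no member was called and 2.42% of all genes were. *Pdia4* (0.41) and *Pdia6* (0.39) in IL3-OHT and *Calr* (0.29), *Pdia4* (0.26) and *Pdia6* (0.25) in GCSF-OHT had adjusted p-values under 0.05 within the threshold. *Xbp1* had the opposite sign, -0.08 ± 0.02 and -0.14 ± 0.02. Set against the 15 other 8 h steps from 24h on, the renewal steps of *Hspa5* were higher by 0.70 ± 0.03 in IL3-OHT. There 11.1% of all genes were called higher. In GCSF-OHT the difference was 0.55 ± 0.03, within the fold threshold. The other steps include those that start from the libraries in which the renewal steps end. In IL3-OHT these libraries include the time points the study left out. A high level in them raises the renewal steps and lowers the other steps together, so this is no comparison with independent steps. No difference of the mean renewal step between the conditions passed the fold threshold for any member, while 8.81% of all genes passed.

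**Figure D4:**
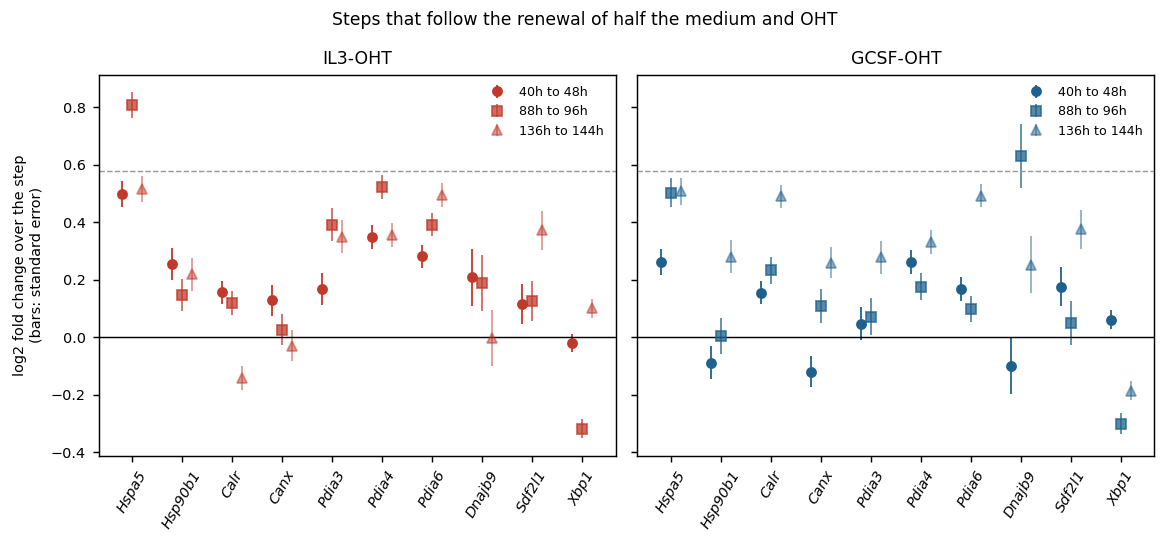
Log2 fold change, with its standard error, of each ER chaperone gene over the 8 h that follow each renewal of medium and OHT in IL3-OHT (left) and GCSF-OHT (right), for the steps from 40h, 88h and 136h. The dashed line marks the fold threshold of 0.58. *Hspa5* reaches 0.81 from 88h to 96h in IL3-OHT and lies above 0 in all of the steps.

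Over the means of 54 groups on the log2 scale, which share plates and medium renewals, the median Pearson correlation of the 45 pairs was 0.763, as a description. *Hsp90b1* and *Pdia6* were the most alike pair (0.947). *Xbp1* had a median correlation with the others of 0.213 and *Dnajb9* of 0.498, and *Dnajb9* was most like *Hspa5* (0.829). Within IL3-OHT the median over pairs was 0.473 and within GCSF-OHT 0.773. Over both courses together *Xbp1* was negative with *Pdia3* alone, but within a course it was negative with all 9 other members in IL3-OHT (down to -0.668 with *Pdia3*) and with 7 of 9 in GCSF-OHT (down to -0.654 with *Dnajb9*). In IL3-OHT *Dnajb9* was negative with 5 of 9, at -0.467 with *Sdf2l1* and -0.02 with *Hsp90b1*, and at 0.759 with *Hspa5*.

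**Figure D5:**
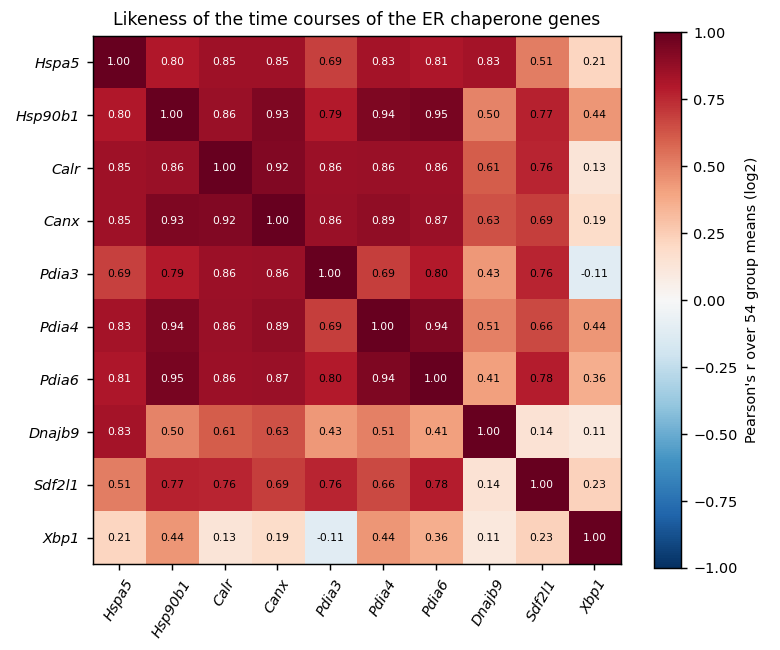
Pearson correlation between each pair of ER chaperone genes over the log2 means of 54 groups, red for positive values. *Xbp1* is the palest row, with correlations from -0.11 to 0.44 over both courses together, and *Hsp90b1* with *Pdia6* is highest at 0.95.

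Of 9922 other genes whose normalized counts averaged 100 or more, those closest to the mean of the scaled members were *Fkbp11* (r = 0.924), *Ppib* (0.918), *Pdia5* (0.918), *Manf* (0.917), *Mydgf* (0.914), *Txndc5* (0.914), *Yif1a* (0.912), *Hsp90ab1* (0.910), *Cct5* (0.909) and *Eif3i* (0.906). *Ppib*, *Pdia5*, *Manf* and *Txndc5* encode folding factors of the ER, and *Hsp90ab1* and *Cct5* encode cytosolic chaperones.

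Genes outside the members that hold an exact ERSE were set beside them, with 14 such genes tested. Genes were matched by symbol, and *Ero1b*, which holds the motif but carries the older symbol *Ero1lb* in the counts, is not among the 14. From 4h to 8h of IL3-OHT *Alg12* (0.60 ± 0.09), *Creld2* (1.14 ± 0.07) and *Zfp57* (1.36 ± 0.44) rose. *Adcy3* (-0.74 ± 0.08) and *Calr4* (-1.21 ± 0.40) fell, while 4.86% of all genes rose and 5.67% fell. Standard errors among the 14 reached 0.72 in this step, for *Ptgdr2*, so several were measured less closely than the members. At 12h of IL3-OHT 1 of the 14 was higher and 3 were lower than at the start, while 11.2% of all genes were higher and 17.5% lower, with a median of -0.30 against 0.47 over the members. At the IL3-OHT endpoint 1 was higher and none lower, while 10.2% of all genes were higher and 15.2% lower. At the GCSF-OHT endpoint 5 of the 14 were lower and none higher, while 23.6% of all genes were lower, beside 4 of the 5 members without a match in their window and all 5 members with one. The median log2 fold change at the GCSF-OHT endpoint was -0.55 over the 14 genes and -0.11 over all genes tested.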

How the data were processed

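RNA-Seq reads had been quantified with Salmon and normalized with DESeq2 per the submitters' notes, which name the builds GRCm38 and mm10 and no versions. The authors deposited 1 table of normalized counts, here signal values per gene, in which read counts were divided by a size factor of the library. Within each library every value was a whole number of steps of 1 read (100% of values, relative tolerance 1e-06), so reads were recovered, and 3 reads correspond to 1.96 to 5.51 normalized counts. Intervals and floors cover counting error only.

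Genes that reached 5 normalized counts in 1 or more libraries were tested (17414 genes in 159 libraries, and 17439 in the fit that adds the 2 time points left out by the study). Log2(normalized count + 1) was fitted with 1 mean per group in limma 3.58.1 (R 4.3.3) with a trended prior. Benjamini-Hochberg adjustment covered all genes tested. Counts were simulated for IL3-OHT 168h against undifferentiated cells over 17414 genes, with changes planted in 100 genes of each size. Of log2 changes of 1, 96% were recovered, and of changes of 2, 100%. The changed genes all lay above a minimum level in undifferentiated cells, and every gene had the same simulated spread. Recovery at low counts or wider spread was not measured. Fold changes are on the log2(value + 1) scale. Alternatives were other pseudocounts, filters and scalings, leaving out each replicate, a replicate block, and edgeR 4.0.16 and DESeq2 1.42.0 on the recovered reads.

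The members and gene lists were chosen with earlier results of these data known. Named are all members, up to 2 called genes per list and direction, and the 10 genes closest to the members. The genes with the motif were named after their values were seen. The lists hold BiP co-chaperones, oxidoreductases and folding factors, glycan trimming, oligosaccharyltransferase, translocon and signal peptidase, ER-associated degradation, UPR regulators, ATF4 targets, cytosolic and mitochondrial chaperones and granule proteins. GCSF 0h samples carry OHT in their titles but not in their treatment label, and were taken as without OHT. Promoters come from RefSeq (GRCm38.p6), and all 10 members matched by symbol. Some marker genes are not reported here.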

Additional observations from a re-analysis of the deposited data

Results flagged for a closer look

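The change from the start of the course differed between the conditions for 3 of 10 members by a test of the difference itself. This share was near that of all genes, of which 25.7% passed at 168h. OHT, its dose, the cytokine and time in culture cannot be told apart in this difference. At 168h the log2 change from the start in GCSF minus that in IL3 was -0.63 for *Calr*, -0.65 for *Pdia4* and 0.77 for *Dnajb9*. Over the mean of the 25 shared time points it was 1.04 for *Dnajb9*, the sole member of 10 to pass, as did 19.9% of all genes. At GCSF-OHT 168h all wells of each of the 10 members, *Calr* and *Pdia4* included, were below all wells at IL3-OHT 168h and at GCSF 0h. Of all genes 29.5% were below IL3-OHT 168h in this way and 29.2% below GCSF 0h. This separation is no test of the difference between the conditions.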

How the results depend on the processing

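DESeq2 and edgeR on the recovered reads, both pseudocounts, both filters and fits of only the groups compared left every count of members called within 1.5 times its value. At the GCSF-OHT endpoint limma called 6807 genes, edgeR 6513 and DESeq2 6280. Single time points against the start or between the conditions, and change over all time points, were not run with DESeq2 or edgeR. Upper-quartile scaling called 2 members in place of 0 from 136h to 144h of IL3-OHT and 1 in place of 0 for IL3-OHT 144h against its neighbours. It moved the median of all genes by at most -0.09 on the log2 scale, at the GCSF-OHT endpoint. Differences near 0 changed sign for *Canx* over the mean time course with edgeR (-0.0107 against 0.0121), for *Canx* in the mean renewal step with upper-quartile scaling (-0.0285 against 0.0404) and over the left-out replicates (-0.004 to 0.1074), and for *Sdf2l1* there over the left-out replicates (-0.0325 to 0.0362). *Sdf2l1* passed the fold threshold for the difference at 168h with upper-quartile scaling (-0.59).

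Leaving out each replicate gave 0 to 1 members called at 1-4h of IL3-OHT, 0 to 1 for GCSF-OHT 96h against its neighbours, 4 to 7 calls over consecutive steps of GCSF-OHT and 4 to 6 members changed over all time points of GCSF-OHT, against 0, 0, 4 and 7. The values furthest from these came without replicate 1 in the first and without replicate 3 in the others. Groups of 2 libraries were kept whole throughout. The count of all genes called fell below its value by over 1.5 times in the renewal step from 40h, from 113 to 42 without replicate 2 and to 58 without replicate 3 in IL3-OHT and from 148 to 60 without replicate 1 in GCSF-OHT, and from 422 to 256 with a pseudocount of 5 in the mean step of GCSF-OHT.

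With the replicate number as a block, 5 members were called after the GCSF pre-treatment and 9 at the GCSF-OHT endpoint, and no call changed. Deviations of same-numbered libraries from their group means correlated between -0.0408 and 0.0307 over 15 pairs, so the numbers were not taken to pair the samples. The cause of these differences was not tested. Depth limited none of the members, which had at least 528 reads.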
